A study of Mus musculus with 4 samples.

Results

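The proteasome genes of mouse T-helper 17 (Th17) cells are described here across 4 RNA-seq libraries. Members were the protein-coding genes whose GENCODE symbol is Psm followed by a letter from a to g and a digit. The rule found 50 of the 50600 genes counted, of which 21764 are protein-coding. It reads names only and no measured value, but it was set with earlier results of these data known. Another 4 genes whose symbols match are pseudogenes, hold between 0 and 4 fragments over all libraries, and were left out.

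The series holds 1 group. The cells are primary T-helper 17 cells of strain C57BL/6NJ, with no genetic change or agent named in the labels, and they were differentiated in culture from CD4 T cells. All 4 libraries carry the same donor entry and differ in biological replicate number, while sex, age and developmental stage are not given. Only the file headers give a time, 24 hours. Total RNA is named as the molecule and in the assay, whereas the linked library protocol is named for polyA selection. No label says that the replicates came from separate animals, so p-values measure only the spread between these libraries, part of which may be technical.

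Replicates 1 to 4 held 41360302, 19332509, 34979616 and 48558772 counted fragments. No library was a copy of another: counts of any pair differed by more than sampling noise, with a chi-square per degree of freedom of 4.36 to 11.4, which does not show that the replicates are independent. All 8 Th17 markers and all 4 T cell markers lay above 1 TPM (a count per base of gene length, scaled to the same total in each library), and the Th17 markers summed to 1930 to 2093 TPM. The 4 B cell markers summed to 0.170 to 0.991 TPM and the 6 macrophage and dendritic cell markers to 21.9 to 31.1 TPM, mostly from Cd74. In that list Lyz2, Csf1r and H2-Aa had no count. The Y-linked gene Ddx3y stood at 77.8 and 58.9 TPM in replicates 1 and 2 and at 0.240 and 0.0925 TPM in replicates 3 and 4, so the libraries fall into 2 and 2 on this gene although they share a donor entry. Over all genes that chi-square value was 4.36 between replicates 1 and 2, 5.87 between 3 and 4, and 6.88 to 11.4 across these sets. The value also depends on sequencing depth, which differed between libraries, so it does not rank the pairs exactly. All SDs and tests take the 4 libraries as 4 samples, and whether they come from fewer cell sources is not given.

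The proteasome is the protease that degrades ubiquitin-tagged proteins in the cytosol and nucleus. Its barrel, the 20S core, stacks alpha and beta rings, and only the beta 1, beta 2 and beta 5 subunits cut peptide bonds, each with an N-terminal threonine. The 19S cap binds ubiquitin chains, unfolds the substrate with a ring of ATPases and feeds it into the barrel. In lymphocytes and in cells exposed to interferon-gamma, newly built cores can take up Psmb9, Psmb10 and Psmb8 in place of Psmb6, Psmb7 and Psmb5. That form, the immunoproteasome, is known for making peptides that bind MHC class I.

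Th17 cells expressed nearly the whole family. The length behind each TPM is the deposited one, the merged length of all annotated exons of the gene. Against a level of 1 TPM, edgeR's quasi-likelihood test with Benjamini-Hochberg adjustment placed 48 of 50 members above and 2 below. Over all 21764 protein-coding genes the same test called 45.9% above and 51.6% below. The members above 1 TPM had a median of 255 TPM, against 31.3 TPM over the 10194 protein-coding genes whose mean was above 1 TPM. Together the 50 genes took 0.939% to 0.962% of all counted fragments in the 4 libraries.

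The exceptions were the subunits known from other tissues. Psmb11, the beta 5 subunit of the thymoproteasome of cortical thymic epithelium, had 2 fragments in replicate 1 and none in the other libraries. A total of 3 fragments over all libraries would be 0.0165 TPM, so its level was under that limit, and edgeR gave an adjusted p of 2.448e-07 for a level below 1 TPM. Psma8, the alternative alpha 4 subunit of testis, had 5, 1, 0 and 4 fragments in replicates 1 to 4, or 0.127 ± 0.102 TPM (SD, n = 4), with an edgeR adjusted p of 0.0004983. Psme2b was the weakest member above the level. This single-exon relative of Psme2 stood at 2.94, 1.86, 2.99 and 3.61 TPM in replicates 1 to 4, with an edgeR adjusted p of 4.361e-11. Of its 50-base words 69.3% also occur in other transcripts, mainly those of Psme2, so its value is uncertain.

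**Figure D1:**
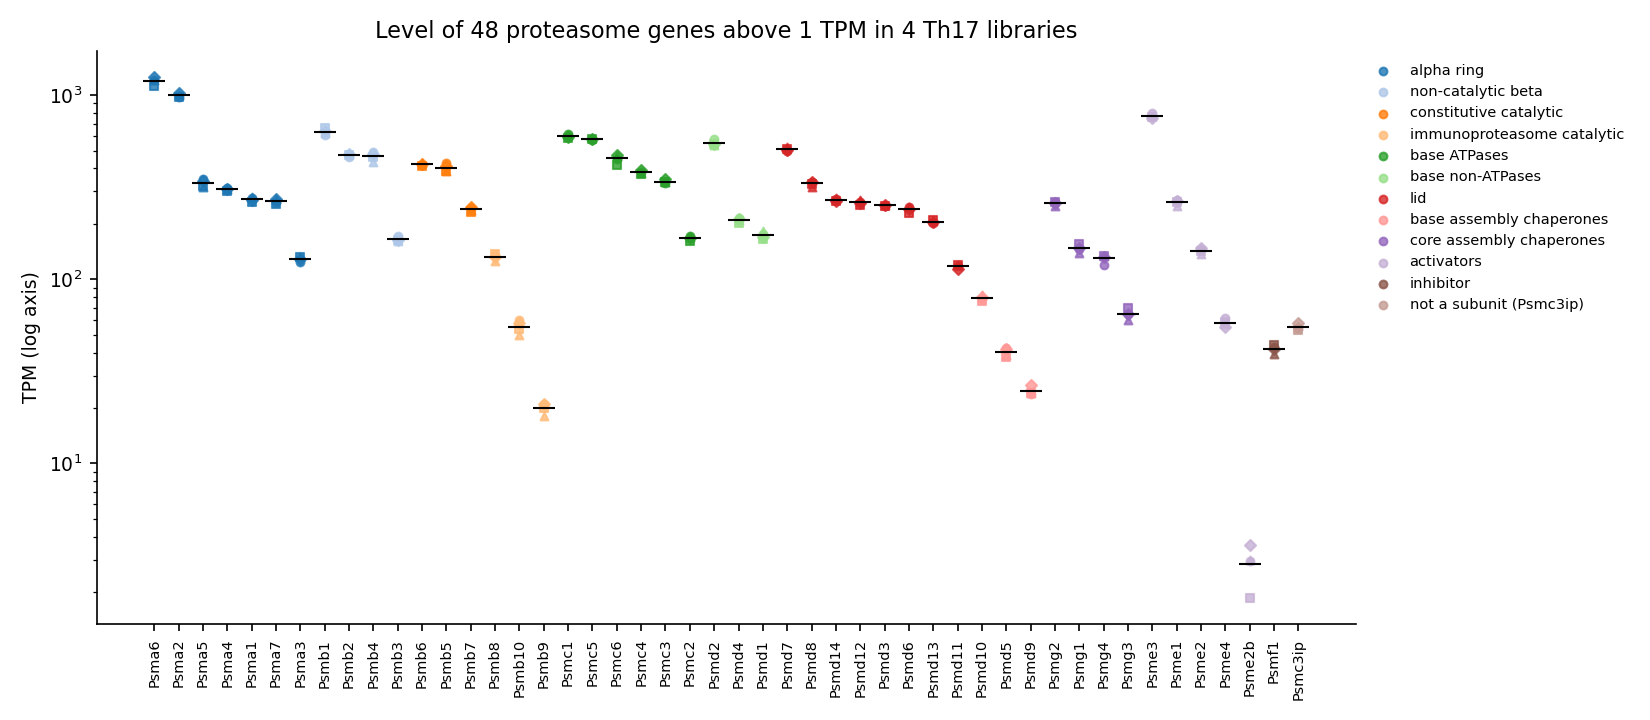
TPM on a log axis for the 48 members above 1 TPM, in order of class and level. Points are the 4 libraries (circle, square, triangle and diamond for replicates 1 to 4) and black bars their means. The constitutive core and cap members lie between 117 and 1200 TPM, while Psmb10 and Psmb9 lie at 55.3 and 20.1 TPM.

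The 31 members of the constitutive 26S proteasome (14 of the core and 17 of the cap) all lay above 100 TPM. The symbol rule misses the cap genes Adrm1, a ubiquitin receptor, and Sem1, which stood lower, at 83.3 ± 2.90 and 85.4 ± 4.39 TPM (SD, n = 4). The 31 members had a median of 331 TPM, ran from Psmd11 at 117 ± 2.64 TPM to Psma6 at 1200 ± 55.3 TPM (SD, n = 4), and took 1.17% to 1.21% of all TPM in each library. The core median was 368 TPM and the cap median 270 TPM. The SD of their log2 mean levels was 0.79, beside 2.19 over all protein-coding genes above 1 TPM. Other complexes of many subunits gave 0.67 for 7 subunits of the CCT chaperonin, 0.54 for the 8 COP9 signalosome genes and 1.16 for 13 eIF3 genes. With the longest coding transcript the SD was 0.61 for the 31 members, 0.28 for CCT, 0.16 for COP9 and 1.13 for eIF3. By both lengths the 31 members were more spread than CCT and COP9 and less than eIF3, while the size of the gaps changed. Median levels of CCT, COP9 and eIF3 were 666, 145 and 646 TPM, so the proteasome genes lay between the COP9 signalosome and the CCT and eIF3 genes.

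The 7 alpha subunits form the outer rings and the gate of the barrel. Their median was 309 TPM. Psma6 (alpha 1) was the highest, at 1209, 1124, 1209 and 1257 TPM in replicates 1 to 4, and Psma2 (alpha 2) followed at 971.2, 980.2, 999 and 1031 TPM. These 2 genes did not overlap with any other member in any library. Psma5, Psma4, Psma1 and Psma7 lay close together, at 333 ± 15.9, 309 ± 5.52, 272 ± 7.05 and 267 ± 8.003 TPM (SD, n = 4), and the values of the last 2 overlapped between libraries. Psma3 (alpha 7) was the lowest, at 129 ± 3.46 TPM. Of the 50-base words of Psma5 49.96% also occur in other transcripts, mainly Gm8394, so its value is uncertain.

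The value of Psma2 moved most with the length used. The deposited length of 944 bases is shorter than the longest coding transcript in GENCODE M21, 2911 bases. With that length Psma2 stood at 233 in place of 995 TPM. Fragments were counted only over GENCODE M13 exons, so that transcript holds bases where none were counted, which lowers the value. Psma6 stayed first in both, at 1027 TPM with the transcript length. Over all members, 16 of 50 moved by over 1.5 times with the longest coding transcript, 12 up and 4 down. Those that moved down, Psma2, Psmb1, Psmc6 and Psmg2, all have a transcript longer than the length over which fragments were counted. Psmg3 moved most upward, by 2.37 times.

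The 4 beta subunits without a catalytic threonine had a median of 470 TPM. Psmb1 (beta 6) stood at 632 ± 22.7 TPM, Psmb2 (beta 4) at 473 ± 8.36 TPM and Psmb4 (beta 7) at 467 ± 25.7 TPM (SD, n = 4). Psmb2 and Psmb4 overlapped between libraries. Psmb3 (beta 3) was lower, at 165 ± 4.39 TPM. With the longest coding transcript this order turned, with Psmb1 the lowest at 240.3 TPM and Psmb3 at 358 TPM. The transcript of Psmb1, 1970 bases, exceeds the 1036 bases over which its fragments were counted, which lowers its value.

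The catalytic subunits are the genes for which the cell has alternatives. Their coding sequences around the active-site threonine are printed to show how alike the exchanged genes are and where they differ. Each window holds 93 bases from the GENCODE M21 transcript (mm10), with 30 bases before the codon of the N-terminal threonine of the mature enzyme and 60 after it. Capitals mark that threonine codon.
Psmb5: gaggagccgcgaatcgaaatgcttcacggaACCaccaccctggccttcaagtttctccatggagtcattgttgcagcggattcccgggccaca
Psmb8: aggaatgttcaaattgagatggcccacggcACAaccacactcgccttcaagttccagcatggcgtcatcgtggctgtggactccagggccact
Psmb6: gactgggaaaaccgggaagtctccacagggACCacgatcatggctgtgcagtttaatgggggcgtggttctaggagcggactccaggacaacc
Psmb9: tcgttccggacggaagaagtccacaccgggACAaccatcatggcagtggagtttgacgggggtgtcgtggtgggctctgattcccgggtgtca
Psmb7: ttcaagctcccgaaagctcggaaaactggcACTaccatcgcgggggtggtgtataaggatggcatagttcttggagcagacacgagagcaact
Psmb10: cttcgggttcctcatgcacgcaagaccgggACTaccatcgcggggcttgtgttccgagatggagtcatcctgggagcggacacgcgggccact

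Within a pair the windows matched at 65 of 93 bases for Psmb5 and Psmb8, 56 for Psmb6 and Psmb9, and 62 for Psmb7 and Psmb10. Between genes of different pairs the matches ran from 43 to 51 bases (the highest, 51, for Psmb5 and Psmb9), so within these windows each gene matched its own partner at the most bases. Whole coding sequences were 68.6%, 67.3% and 64.6% identical in the 3 pairs. Over whole coding sequences genes of different pairs came about as close or closer, with 64.8% for Psmb9 and Psmb10 and 67.3% for Psmb8 and Psmb9. The longest run of bases that the coding sequences of a pair share was 18, 11 and 15 bases, and Psmb9 and Psmb10, of different pairs, also share a run of 15. The threonine codon is codon 60 of Psmb5, 73 of Psmb8, 34 of Psmb6, 21 of Psmb9, 44 of Psmb7 and 40 of Psmb10. It lies in exon 1 of Psmb5 and in exon 2 of the other 5 genes.

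The genes lie on 5 chromosomes of mm10. Psmb8 spans chr17:34197721-34201454 and Psmb9 spans chr17:34181988-34187764, so these immunoproteasome genes are neighbours, and their threonine codons are at chr17:34199302-34199304 and chr17:34185795-34185797. Psmb10 spans chr8:105935735-105938444. Psmb5 spans chr14:54614120-54617995, Psmb6 spans chr11:70525367-70527858 and Psmb7 spans chr2:38588036-38644087.

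At all 3 positions the constitutive gene had the higher TPM in 4 of 4 libraries, and the gap differed between positions. For a single pair the exact two-sided sign-flip test over 4 libraries cannot give a p below 0.125, and each of the 3 pairs gave that smallest value, 0.125 raw and 0.125 after Benjamini-Hochberg adjustment over 3 pairs. No pair could therefore pass a threshold of 0.05 by this test.

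At beta 5, the chymotrypsin-like site, Psmb8 stood at 135.8, 136.5, 126.2 and 132.7 TPM in replicates 1 to 4. Psmb5 stood at 425.9, 388.4, 386.0 and 413.4 TPM. The groups of values did not overlap, Psmb5 was 3.04 ± 0.132 times as high (SD, n = 4), and the difference of log2(TPM + 1), Psmb8 minus Psmb5, was -1.60 ± 0.06. Psmb8 made up 24.8% ± 0.835 of the TPM of the pair.

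At beta 1, the caspase-like site that Psmb9 replaces, Psmb9 stood at 21.1, 20.02, 18.1 and 21.001 TPM in replicates 1 to 4. Psmb6 stood at 418.5, 411.4, 430.1 and 424.9 TPM. Psmb6 was 21.1 ± 1.80 times as high (SD, n = 4), the widest gap of the 3 pairs, and the log2 difference was -4.33 ± 0.11. Psmb9 was 4.55% ± 0.345 of the pair.

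At beta 2, the trypsin-like site, Psmb10 stood at 59.996, 53.7, 49.8 and 57.7 TPM in replicates 1 to 4. Psmb7 stood at 244.6, 232.8, 238.1 and 247.9 TPM. Psmb7 was 4.37 ± 0.296 times as high (SD, n = 4), and the log2 difference was -2.11 ± 0.09. Psmb10 was 18.7% ± 1.00 of the pair. Averaged over the 3 positions, the immunoproteasome genes were lower by a log2 difference of -2.68 ± 0.07 (SD, n = 4).

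**Figure D2:**
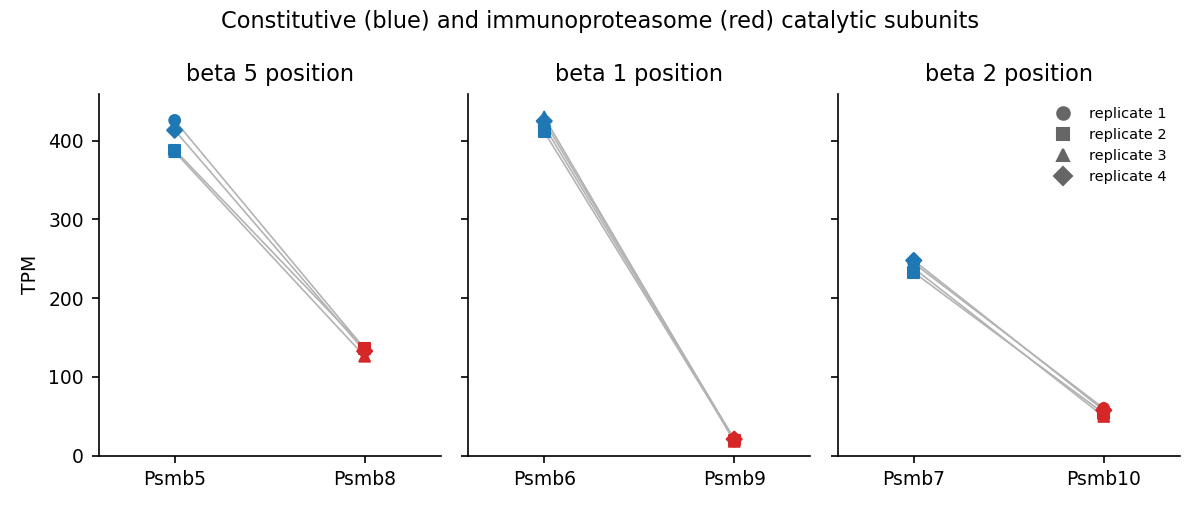
TPM of the constitutive (blue) and immunoproteasome (red) gene at each catalytic position, on a linear axis from 0. Lines join the values of 1 library, and the symbols mark replicates 1 to 4. In all 4 libraries the constitutive gene is higher, by 3.04, 21.1 and 4.37 times on average.

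The beta 5 difference appeared with the gene length and not in the counts. Psmb8 and Psmb5 had nearly equal counts, 15570 and 15218 fragments over all libraries, but their deposited lengths are 2736 and 871 bases. Without any length the difference turned to 0.049 ± 0.063 on the log2 scale, with Psmb8 higher in 4 of 4 libraries. Scaled by coding sequence length it was -0.015 ± 0.064, with Psmb8 higher in 1 of 4, and by the longest coding transcript -0.80 ± 0.06. The share of Psmb8 was thus 24.8% with merged exons, 36.4% with the longest coding transcript and 49.7% with coding length. Fragments were counted over all exons, while the coding lengths are 828 bases for Psmb8 and 792 for Psmb5. Coding length thus leaves out far more counted bases of Psmb8 than of Psmb5, which raises the share of Psmb8. Of the 50-base words of Psmb5 54.1% also occur in other transcripts, mainly Gm3375, and 12.5% of its exon length overlaps Mir686 on the same strand. Fragments that map to more than 1 place were not counted, which can lower the count of Psmb5, so its level is uncertain.

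The other pairs kept their direction with each length. Psmb9 had 3172 fragments against 33963 for Psmb6, and the log2 difference lay between -4.35 and -3.27 over the 5 ways of scaling by length. Psmb10 had 4091 fragments against 35627 for Psmb7, and the log2 difference lay between -3.28 and -1.998. In all 5 the difference of Psmb9 from Psmb6 was the wider of these 2.

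**Figure D3:**
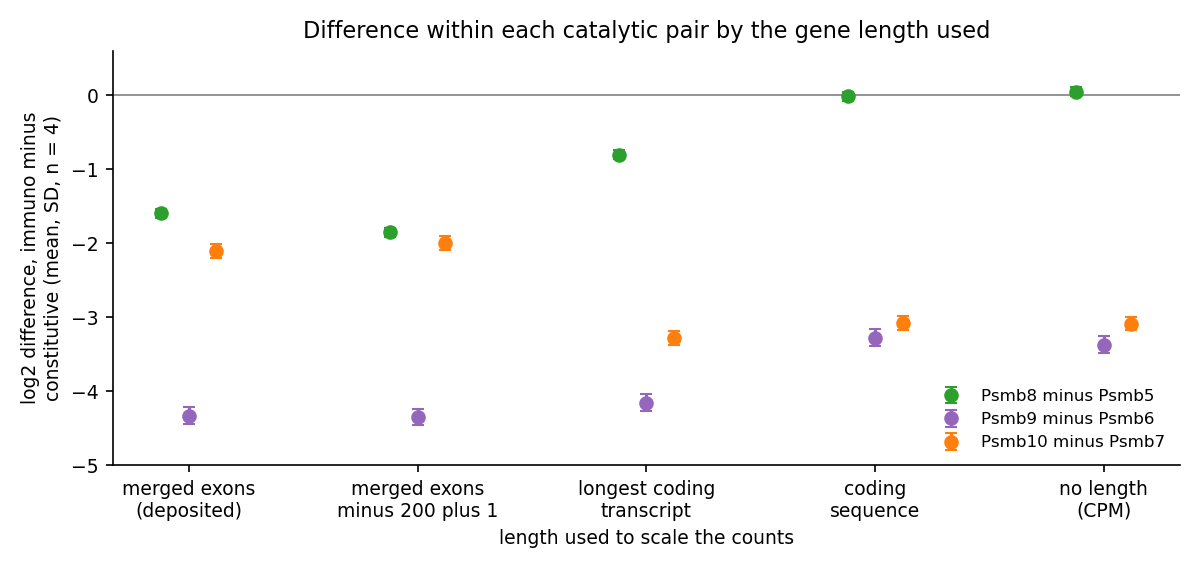
Log2 difference of each immunoproteasome gene from its constitutive partner (mean, bars SD, n = 4) for 5 ways of scaling counts by length. Psmb8 minus Psmb5 goes from -1.60 with merged exons to 0.049 with no length, while the other pairs stay between -4.35 and -1.998.

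Among themselves the immunoproteasome genes were unequal. Psmb8 was 6.64 ± 0.309 times as high as Psmb9 and 2.41 ± 0.149 times as high as Psmb10 (SD, n = 4), or 4.12 and 3.12 times with the longest coding transcript. Psmb10 was 2.76 ± 0.0668 times as high as Psmb9, but 1.32 times with the longest coding transcript. The constitutive genes were closer together, with Psmb6 1.75 times as high as Psmb7. With the longest coding transcript Psmb6, Psmb7 and Psmb5 stood at 714, 514 and 283 TPM. The levels of Psmb6 and Psmb5, at 421 and 403 TPM, overlapped between libraries.

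The 19S base holds the ATPase ring that unfolds substrates. Its 6 ATPase genes had a median of 417 TPM. Psmc1 and Psmc5 were the highest, at 599 ± 14.3 and 578 ± 6.10 TPM (SD, n = 4), followed by Psmc6 at 453 ± 26.01, Psmc4 at 381 ± 8.14 and Psmc3 at 338 ± 7.11 TPM. Psmc2 was the lowest, at 167 ± 4.66 TPM. With the longest coding transcript the range narrowed from 3.59 times to 1.93 times between lowest and highest. Psmc6 was then the lowest at 229 TPM, with Psmc2 at 340.4 TPM. The transcript of Psmc6, 2234 bases, exceeds the 1564 bases over which its fragments were counted, which lowers its value.

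The base also holds the large scaffolds Psmd2 and Psmd1 and the ubiquitin receptor Psmd4. Psmd2, a docking subunit for substrate shuttles, stood at 578.2, 540.0, 532.7 and 544.3 TPM in replicates 1 to 4. Psmd1 stood at 173 ± 8.21 TPM, and Psmd2 was 3.17 ± 0.175 times as high (SD, n = 4), or 1.85 times with the longest coding transcript. Psmd4 stood at 209.9 ± 6.06 TPM, above Psmd1, but at 243 TPM against 292 TPM for Psmd1 with the longest coding transcript.

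The 8 lid genes encode the part that removes ubiquitin chains, and their median was 257 TPM. Psmd7, the partner of the deubiquitinase, led with 509 ± 10.6 TPM (SD, n = 4), and Psmd8 followed at 331 ± 10.1 TPM. Psmd14, the deubiquitinase itself, stood at 270 ± 6.35 TPM, near Psmd12 at 261 ± 7.997, Psmd3 at 252 ± 0.802 and Psmd6 at 240 ± 8.63 TPM. Psmd13 stood at 206 ± 2.63 and Psmd11 at 117 ± 2.64 TPM. Neighbours from Psmd14 to Psmd12 and from Psmd12 to Psmd3 overlapped between libraries. With the longest coding transcript Psmd3 was second to Psmd7, at 421 TPM, and Psmd11 stayed lowest at 190.3 TPM.

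The chaperones that build the proteasome had lower medians than the constitutive subunit classes, 40.1 TPM for those of the base and 138 TPM for those of the core. The base chaperones Psmd10, Psmd5 and Psmd9 stood at 79.4 ± 2.33, 40.1 ± 2.10 and 24.6 ± 1.29 TPM (SD, n = 4), and 24.9% of the 50-base words of Psmd9 occur in other transcripts. The core chaperones were higher, with Psmg2 at 259 ± 5.60, Psmg1 at 147 ± 6.78, Psmg4 at 130 ± 6.85 and Psmg3 at 65.0 ± 3.82 TPM. With the longest coding transcript Psmg3 led at 154 TPM, Psmg2 and Psmg1 stood at 152 and 137 TPM, and Psmg4 was lowest at 93.6 TPM. The transcript of Psmg2, 1300 bases, exceeds the 1059 bases over which its fragments were counted, which lowers its value. Psmg1 and Psmg2 are known to work as a heterodimer, as are Psmg3 and Psmg4. Psmf1, named as a proteasome inhibitor, stood at 41.9 ± 2.00 TPM. Psmc3ip, which shares only the symbol and encodes a partner of the meiotic recombinases, stood at 55.0 ± 2.03 TPM.

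The activators are rings that open the barrel without the 19S cap. Psme3, the nuclear PA28 gamma, was the third highest member at 798.1, 761.6, 774.3 and 749.2 TPM in replicates 1 to 4, and ranked 160th of the protein-coding genes. Psme1 and Psme2 encode the PA28 alpha and beta subunits, which assemble together and respond to interferon-gamma. Psme1 stood at 268.0, 264.2, 250.9 and 265.1 TPM and Psme2 at 145.2, 141.5, 137.0 and 147.0 TPM. Psme1 was 1.84 ± 0.0263 times as high as Psme2 (SD, n = 4), and Psme3 was 2.94 ± 0.114 times as high as Psme1, or 1.64 times with the longest coding transcript. Psme4, the PA200 activator, stood at 58.1 ± 2.60 TPM. Of the 50-base words of Psme2 28.3% also occur in other transcripts, mainly Psme2b, so its value and its ratio to Psme1 are uncertain.

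No member passed the test of variation between libraries. A negative binomial deviance test at edgeR's trended dispersion, with Benjamini-Hochberg adjustment over 12849 genes, called 0 of the 48 members it could test, and 0 had an unadjusted p under 0.05. Over all genes it called 47, or 0.366%, and 4.89% had an unadjusted p under 0.05. The same 0 members came out with DESeq2 size factors and with a common dispersion, which called 2.77% of genes. The median coefficient of variation (SD over mean) was 3.02% for the 48 members and 3.99% for the 6209 protein-coding genes between 20 and 1300 TPM. These sets are not matched in level, with medians of 255 and 61.7 TPM, and the members include Psme2b at 2.85 TPM.

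Psmd3 was the most even member, at 251.3, 251.2, 253.0 and 251.9 TPM in replicates 1 to 4, a coefficient of variation of 0.318%. Among members above 20 TPM, Psmb10 and Psmb9 had the highest, 8.14% and 6.94%. In replicates 1 to 4 these rested on 1246, 530, 883 and 1432 fragments for Psmb10 and 940, 424, 689 and 1119 for Psmb9. The negative binomial deviance test gave them unadjusted p of 0.4039 and 0.5683, so neither varied beyond the trend by that test. The coefficient of variation of Psme2b was 25.5%, on 30, 9, 26 and 44 fragments in replicates 1 to 4.

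**Figure D4:**
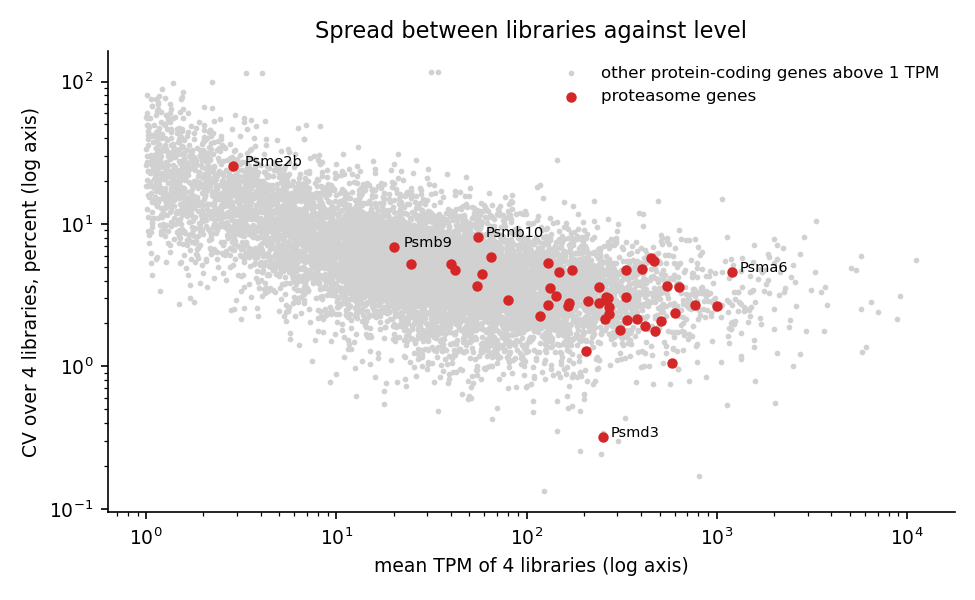
Coefficient of variation over the 4 libraries against mean TPM, both on log axes, for the members (red) and other protein-coding genes above 1 TPM (grey). Members lie within the grey cloud, with Psmd3 at 0.318% and Psmb10 at 8.14%.

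The immunoproteasome genes and the PA28 alpha and beta genes shared their lowest library. Psmb8, Psmb9, Psmb10, Psme1 and Psme2 were all lowest in replicate 3, a set singled out after its values were seen. Psme3, the PA28 gamma gene, was lowest in replicate 4 instead. Replicate 3 was the lowest library for 15 of 48 members above 1 TPM and for 27.3% of protein-coding genes above 1 TPM. Besides the 5 genes these were Psmb5, the constitutive partner of Psmb8, and Psmb3, Psmb4, Psma5, Psmd2, Psmd8, Psmf1, Psmg1, Psmg2 and Psmg3. A lowest value in replicate 3 was therefore not particular to the immunoproteasome and PA28 genes. Replicate 2 was the lowest for more members, 19 of 48. Of the 11 MHC class I loading genes 6 were lowest in replicate 3, and of 8 interferon-stimulated genes whose mean was above 1 TPM 3 were. The differences were small, with the highest library exceeding the lowest by 1.07 to 1.21 times in the 5 genes, and the variation test called none of them. Replicate 3 held 34979616 fragments, fewer than replicates 1 and 4 and more than replicate 2.

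**Figure D5:**
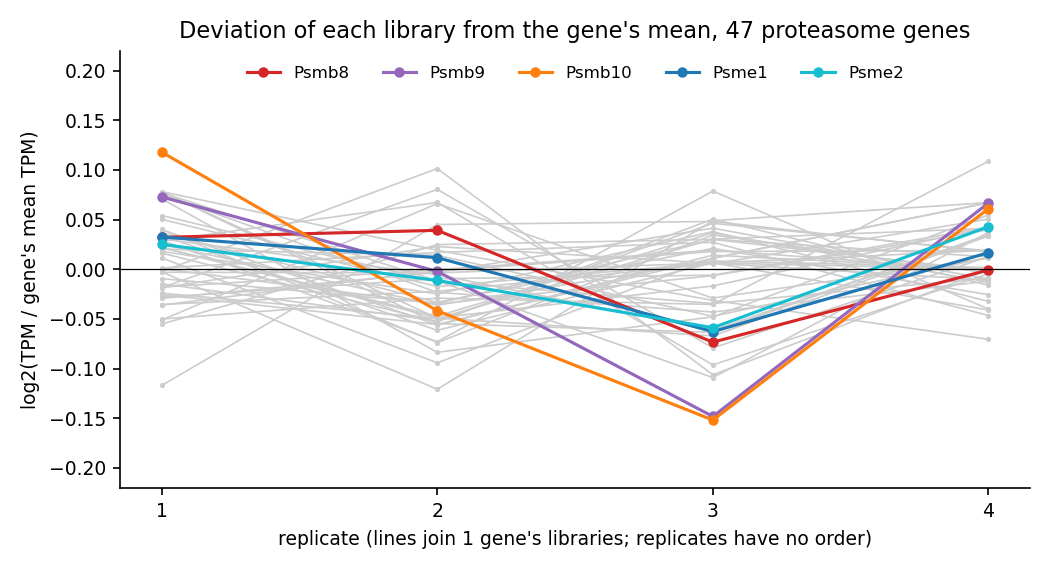
Log2 ratio of each library to the gene's mean TPM, for 47 members above 1 TPM (Psme2b not drawn), with replicates in label order. The 5 coloured genes all have their lowest value in replicate 3. Grey lines are the other members, some of which are also lowest in replicate 3.

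Genes around the proteasome were also expressed. All 17 cofactors found by symbol lay above 1 TPM by edgeR's test, where 45.9% of protein-coding genes did. They were led by Vcp, the unfoldase that extracts ubiquitinated proteins, at 314 ± 7.56 TPM, Txnl1, a thioredoxin-like cap protein, at 277 ± 7.42 TPM and Rad23b, a ubiquitin shuttle, at 249 ± 7.38 TPM (SD, n = 4). Ube3c, a proteasome-bound ubiquitin ligase, was the lowest at 39.8 ± 1.63 TPM. Paaf1 had no match by symbol.

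Nfe2l1 encodes the factor known to raise proteasome genes when the protease is impaired. All 8 genes of that list lay above 1 TPM, where 45.9% of protein-coding genes did. Nfe2l1 stood at 115 ± 4.21 TPM (SD, n = 4), and its small Maf partners Mafk, Mafg and Maff at 76.1 ± 3.75, 58.3 ± 1.68 and 10.4 ± 1.51 TPM. None of these genes or cofactors passed the variation test, which called only 0.366% of all genes.

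The MHC class I loading genes, which act on peptides that the proteasome makes, were expressed. All 11 lay above 1 TPM, where 45.9% of protein-coding genes did. The highest were B2m, the light chain, at 1856 ± 74.8 TPM, Calr, a chaperone of loading, at 1207 ± 32.6 TPM and the heavy chain H2-K1 at 762 ± 25.5 TPM (SD, n = 4). Nlrc5, the transactivator of class I and immunoproteasome genes, was the lowest at 20.4 ± 1.96 TPM. The heavy chain counts may be split with near-identical family members.

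The 12 interferon receptors, kinases and factors and a list of 15 interferon-stimulated genes were read beside them. All 12 receptors, kinases and factors lay above 1 TPM, from Jak2 at 418 ± 9.09 TPM, Jak1 at 143 ± 4.97 TPM and Tyk2 at 28.0 ± 0.973 TPM down to Stat2 at 5.91 ± 0.419 TPM (SD, n = 4). By edgeR's test 7 of 15 interferon-stimulated genes lay above 1 TPM, 6 below and 2 neither. Of protein-coding genes 45.9% lay above and 51.6% below, so the share above is near the background. Bst2 led at 225 ± 18.2 TPM, then Ifi47 at 33.1 ± 3.46 TPM, and Rsad2 had no count. Ifng itself stood at 0.230 ± 0.222 TPM. In bulk RNA, fewer cells of a type and less RNA per cell cannot be told apart.

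Promoter letters were compared as a description. RefSeq windows from 250 bases before to 50 after the start (GRCm38.p6, the build of mm10) were matched for 42 of 50 members. The ETS motif CCGGAA, searched on both strands, was in 21 of 42, or 50%, against 16.7% of all genes with such a window and 35.5% of protein-coding genes above 1 TPM. The antioxidant response motif TGACNNNGC, to which NFE2L1 and NFE2L2 bind, was in 6 of 42 (14.3%), against 13.99% of all genes and 16.99% of protein-coding genes above 1 TPM. The interferon response core GAAANNGAA was in 7 (16.7%, against 9.76% and 8.26%), and of the immunoproteasome and PA28 genes only Psme1 was among them. The STAT motif TTCNNNGAA was in 3 (7.14%, against 9.55% and 8.24%), Psmb8 among them, and CCAAT in 15 (35.7%, against 41.1% and 43.6%). A match says only that the letters are in the window.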

How the data were processed

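Polyadenylated or total RNA, as the labels leave it, was sequenced from 4 Th17 libraries. Per the file headers the authors counted read pairs with both ends mapped over exons of GENCODE M13 genes with featureCounts v1.4.6-p4, using the reverse strand setting, 2. The deposited values are whole counts per gene, and the assembly is mm10 per the labels. The deposited Length is the merged exon length. The alignment file named in the headers carries the tag star2, and the aligner's settings were not used here.

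Symbols and gene types came from GENCODE M21 by Ensembl ID, for 50376 of 50600 genes. TPM is count per base of Length, scaled to the same total in each library. Levels were tested against 1 TPM with edgeR 4.0.16 over 21764 protein-coding genes (two-sided, threshold 0.05 adjusted). Variation used edgeR's trended dispersion over 12849 genes whose mean count reached 10. Pairs used log2(TPM + 1) and an exact two-sided sign-flip test. DESeq2 1.42.0 and limma 3.58.1 gave alternatives in R 4.3.3. A value was called uncertain where at least 25% of a gene's 50-base words occur in another gene's transcripts. Both fitted tests were checked on simulated data.

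The library totals, 19332509 to 48558772 counts, set the precision, and limits of 3 counts cover counting error only. Members, classes and lists were chosen with earlier results of these data known. Outside the rule that follows, only Adrm1, Sem1, Ifng, Ddx3y and marker genes were given values. The text names every member by class and, of each other list, the 3 highest and the lowest by mean TPM. The value of 1 gene that this rule names is not reported here. Alternatives were other lengths, denominators, thresholds, tools and each library left out. Scaling by coding length and by no length was added after the data were seen.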

Additional observations from a re-analysis of the deposited data

Results flagged for a closer look

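Of 57 values tested, 3 had 1 of 4 libraries far from the others by Dixon's ratio, which chance does in about 1 of 20 groups. Psmd9 stood at 26.5 TPM in replicate 4, against 23.7 to 24.1 TPM in the others. Psmg2 stood at 250.2 TPM in replicate 3, against 260.7 to 262.2 TPM in the others. Psmb11 stood at 0.0387 TPM in replicate 1 and at 0 in the others, on 2 fragments in all, which is under the limit of 3.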

How the results depend on the processing

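No comparison of groups, paired or not, was possible because the series has 1 group. Leaving out each library in turn gave 48 members above 1 TPM, 2 below and 0 varying. The log2 differences then lay between -1.63 and -1.58 for Psmb8 minus Psmb5, -4.36 and -4.27 for Psmb9 minus Psmb6, -2.14 and -2.06 for Psmb10 minus Psmb7, and -2.69 and -2.64 for their mean. All 50 members' TPM moved by less than 1 SD, which always holds when 1 of 4 values is left out, so it says nothing about stability. With only genes of at least 10 counts on average, 48 members were tested and 0 were below 1 TPM, since Psma8 and Psmb11 leave the test. At a level of 10 TPM, 47 lay above and 3 below.

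Length moved the levels. With no length the log2 difference of Psmb8 and Psmb5 reversed to 0.049. The mean difference was -2.75 with the longest coding transcript, -2.12 with coding length and -2.14 with no length. In that order the share of Psmb8 was 36.4%, 49.7% and 50.8%, of Psmb9 5.21%, 9.19% and 8.52%, and of Psmb10 9.19%, 10.4% and 10.3%. With merged length minus 200 plus 1 the share of Psmb8 was 21.5%.

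Class medians with the longest coding transcript were 454 TPM for the alpha ring, 419 for non-catalytic beta, 514 for constitutive catalytic, 382 for ATPases, 292 for other base subunits and 324 for the lid. With length minus 200 plus 1 they were 165, 265, 230.0, 229, 110.3 and 133 TPM, and 30.6 TPM for the immunoproteasome genes. That setting shifted protein-coding genes above 1 TPM by a median of -0.96 on the log2 scale, because genes of up to 200 bases then took more of the total. The transcript length shifted protein-coding genes above 1 TPM by a median of -0.16 and coding length by -0.11.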
